A study of Xenopus laevis with 12 samples.

Results

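Libraries of RNA recovered with antibody from Xenopus laevis oocytes were compared between the 4 labelled Staufen and the 4 labelled hnRNPab, that is 8 of the 12 libraries of the series. The other 4 carry the label IgG, the control antibody, and are given as levels only. Libraries were chosen by their titles and paired by the replicate number in the title. All 3 groups came from oocytes pooled over stages II and III, whose lysate had been run over a size exclusion column to enrich L-bodies before the immunoprecipitation. The RNA was sequenced as 150 bp paired reads and counted per gene. The labels do not say whether a replicate number stands for a separate frog or lysate.

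L-bodies are large RNA-protein condensates of the oocyte cytoplasm that carry mRNAs to the vegetal cortex, where some of those mRNAs later pattern the embryo and its germ layers. Staufen is a double-stranded RNA-binding protein of transport particles, and hnRNPab is an RNA-binding protein of the A/B family of heterogeneous nuclear ribonucleoproteins (hnRNPs) that binds localized mRNAs. Xenopus laevis has an allotetraploid genome, so that many genes exist as a .L and a .S copy, called homeologs, which are counted apart. A level below is in CPM, a gene's share of its library's counts after TMM scaling between libraries, and a change is the log2 fold change of the Staufen-labelled over the hnRNPab-labelled libraries. Positive changes therefore mean more of that RNA, as a share of the library, under the Staufen label. Recovery by the antibody and abundance of the RNA in the lysate cannot be told apart from these counts.

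The labels went against the study's own tables, so every direction below is that of libraries as labelled. Gene names come only from 2 deposited tables of genes that the authors called enriched, 1 for Staufen and 1 for hnRNPab. Of the 1974 tested genes in the authors' deposited Staufen table alone, the Staufen label had 19 (0.963%) higher and 1859 (94.2%) lower than the hnRNPab label. For the 1472 in the authors' deposited hnRNPab table alone, 1185 (80.5%) were higher and 56 (3.8%) lower under the Staufen label. Over all 3887 tested genes with a name, 1285 (33.1%) were higher and 2161 (55.6%) lower, and the gene lists below are drawn from these. Counts of list members below are to be read beside these shares. The tables may rest on some of these same libraries, so these counts describe the 2 sources and test nothing. Since the table that lists a gene goes with its direction here, no count of named genes below is independent evidence of a direction.

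Gene counts per library ran from 14147584 to 18678540 under the Staufen label and from 17635063 to 19202568 under the hnRNPab label. A count of 0 allows up to 3 counts, or 0.156 to 0.212 CPM, which covers counting error only. The share of singly aligned reads that fell outside exons was 13.4% to 14.8% under the Staufen label and 11% to 12.9% under the hnRNPab label. The 100 genes with the most counts held 6.85% to 7.84% of counts in the Staufen-labelled libraries and 8.59% to 11.3% in the hnRNPab-labelled ones. Neither pair of ranges overlapped, and their part in the gene changes was not tested. Same-numbered libraries deviated together from their group means, with correlations across genes of 0.81 to 0.89, against -0.53 to -0.11 for libraries with different numbers. Deviations from a mean of 4 libraries sum to 0, so positive correlations of same-numbered libraries push the latter correlations below 0. For the unnamed gene10064 the Staufen-labelled libraries held 12.4, 10.5, 62.1 and 54.8 CPM in the order of replicates 1 to 4, and the hnRNPab-labelled ones 82.1, 65.0, 345 and 326 CPM. Replicates 3 and 4 lay several-fold above 1 and 2 under both labels, and each Staufen-labelled library lay below its partner of the same number (log2 -2.59, SE 0.0632).

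Most of the measured transcriptome differed between the labels, and most of the differences were small. With edgeR's quasi-likelihood test and the replicate number as a block, 6672 genes (33.1%) were higher and 6538 (32.4%) lower in the Staufen-labelled libraries, 65.4% in all, of 20187 tested at a Benjamini-Hochberg adjusted p below 0.05. Without the block the counts were 3246 and 3231, and each of those 6477 genes was also called with it, in the same direction. The median size of a called change was 0.54 on the log2 scale, or 1.46-fold either way, and 53.9% of called genes changed by less than 1.5-fold. Tested against a threshold of 2-fold with edgeR's glmTreat, 652 genes (3.23%) were higher and 645 (3.2%) lower, and 174 and 300 without the block. The 645 lower genes took up 3.73% to 4.61% of gene counts in the Staufen-labelled libraries and 10.2% to 12.7% in the hnRNPab-labelled ones. For the 652 higher genes these shares were 5.65% to 7.69% under the Staufen label and 1.94% to 2.72% under the hnRNPab label, as their choice from these libraries implies. Within a given replicate number, 98.4% to 99.0% of called genes had the sign of the fitted change. Their choice by a fit to these same pairs largely implies this.

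**Figure D1:**
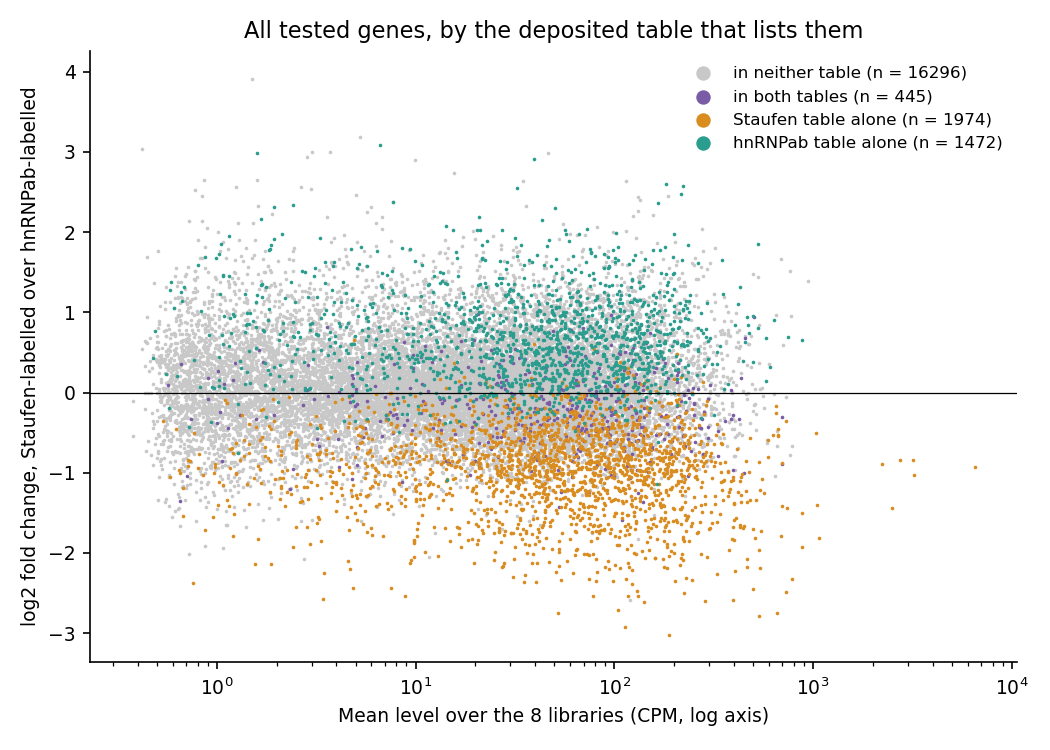
Each point is 1 of the 20187 tested genes, with its mean level over the 8 libraries in CPM on a log axis and its log2 fold change of Staufen-labelled over hnRNPab-labelled libraries, coloured by the authors' deposited table that lists it. Genes in the Staufen table alone lie mostly below 0 (median -0.92) and genes in the hnRNPab table alone mostly above it (median 0.61), while genes in neither centre on 0.04.

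Among named genes, the largest fall was that of arfgap1.S (gene14627), which encodes a GTPase-activating protein for Arf1 that acts in Golgi traffic. In the order of replicates 1 to 4, its level was 52.6, 39.8, 35.9 and 37.1 CPM in the Staufen-labelled libraries, against 434, 262, 326 and 318 CPM in the hnRNPab-labelled ones. The lowest hnRNPab-labelled library lay far above the highest Staufen-labelled one (log2 -3.02, SE 0.0667, adjusted p = 1.03e-22, edgeR). The antiproliferative gene btg3.S, whose product can recruit the deadenylation machinery, was at 204, 150.2, 103 and 91.0 CPM under the Staufen label and 1415, 939, 684 and 698 CPM under the hnRNPab label (log2 -2.78, SE 0.0574, adjusted p = 6.8e-23). Replicate 1 was highest under both labels for this gene, and the ratio held within each number. The replication licensing factor cdc6.L was at 171 ± 46.4 against 1148 ± 320.1 CPM (SD, n = 4 each; log2 -2.75, SE 0.0636, adjusted p = 1.55e-22). Next came haus3.L, of the augmin complex, which acts in branching spindle microtubules, at 27.5 ± 1.27 against 181 ± 31.5 CPM (log2 -2.71), and the ubiquitin ligase gene mylip.S at 81.2 ± 5.53 against 493 ± 81.9 CPM (log2 -2.60). Its homeolog mylip.L fell alike (log2 -2.43) at 2.35 ± 0.684 against 12.7 ± 1.29 CPM.

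The rest of the 15 largest falls spanned several functions. They included the MAP kinase phosphatase gene dusp1.L (log2 -2.54), the inhibitory G protein subunit gnai1.S (-2.53), the mitotic phosphatase cdc25a.S (-2.53) and racgap1.S (-2.53), a regulator of cytokinesis. Also among them were the nuclear exonuclease xrn2.L (-2.49), the calpain protease capn5.L (-2.47), the methionine adenosyltransferase mat2a.S (-2.45), the cap methyltransferase pcif1.S (-2.38) and the autophagy protease atg4c.L (-2.36). All 15 were called with edgeR (adjusted p of at most 2.7e-15), none of their ranges overlapped between labels, and all are listed in the authors' deposited Staufen table alone. Across all tested genes, 15.9% had the Staufen-labelled range wholly below the other.

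Of named genes that rose, wac.S, whose product is an adaptor that links histone H2B ubiquitination to transcription, changed most. Its level was 208, 323, 364 and 362 CPM in Staufen-labelled replicates 1 to 4, against 35.8, 54.5, 55.9 and 58.6 CPM in the hnRNPab-labelled ones (log2 2.6, SE 0.0571, adjusted p = 1.03e-22, edgeR). Replicate 1 was the lowest under both labels. The chromatin-associated gene qser1.S was at 218, 446, 469 and 392 CPM under the Staufen label and 38.5, 76.4, 72.3 and 67.0 CPM under the hnRNPab label (log2 2.57, SE 0.057, adjusted p = 1.03e-22). A mitochondrial carrier gene of the sideroflexin family, sfxn5.L, was at 55.3 ± 9.59 against 9.40 ± 1.93 CPM (SD, n = 4 each; log2 2.55). The levels of fam168b.S were 368 ± 53.5 against 65.8 ± 6.33 CPM (log2 2.47), and those of larp6-like.1.S, named after the La-related RNA-binding proteins, 279 ± 31.1 against 54.5 ± 10.1 CPM (log2 2.36).

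The remaining rises included several genes of nuclear proteins. They were fam208b.S (log2 2.30), prdm2.L, a PR-domain zinc finger protein (2.04), hmg20b.S, a high-mobility-group protein of a histone demethylase complex (2.08), znf800.L (2.03), and the CREB coactivator crtc2.L (2.02). Others were fam219a.S (2.19), the sterol hydroxylase gene cyp8b1.S (2.15), cbll1.S, a ubiquitin ligase associated with the mRNA adenosine methylation complex (2.03), the tight junction scaffold tjp1.S (1.99), and alg10.L, a glucosyltransferase of glycan assembly in the endoplasmic reticulum (ER) (1.98). All 15 passed with edgeR (adjusted p of at most 1.94e-16), and in all 15 the lowest Staufen-labelled library lay above the highest hnRNPab-labelled one, as it did for 15.9% of tested genes. All are listed in the authors' deposited hnRNPab table alone.

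**Figure D2:**
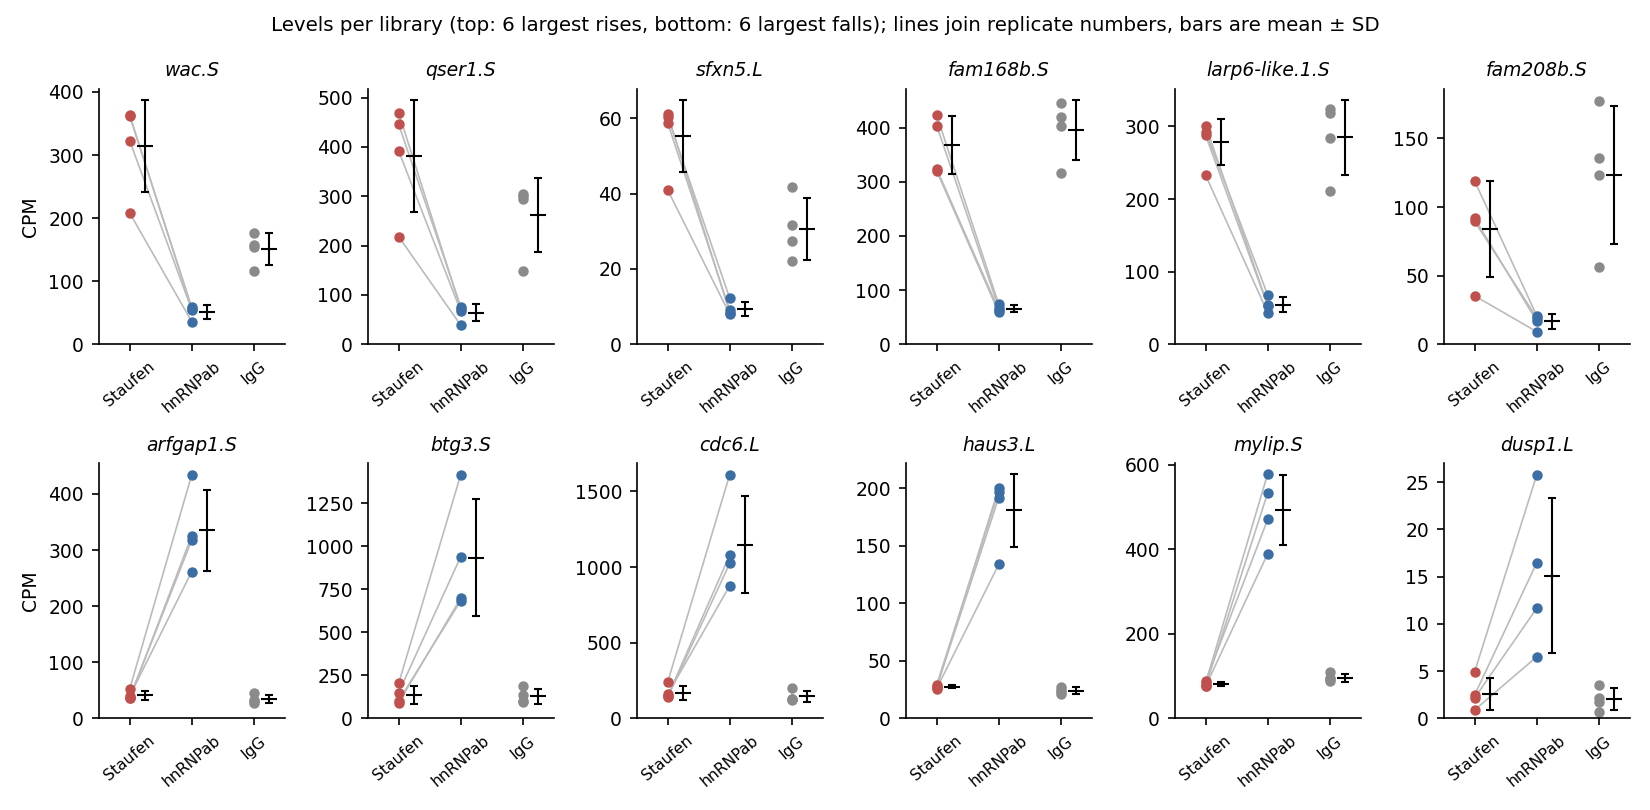
Levels in CPM of the 6 named genes with the largest rises (top) and the 6 with the largest falls (bottom), 1 point per library and grey lines joining the Staufen-labelled and hnRNPab-labelled libraries of a replicate number; bars give mean ± SD (n = 4). No range overlaps between those 2 labels, and the IgG-labelled level of the 6 falls lies near the Staufen-labelled one (for arfgap1.S a mean of 34.4 CPM, against 41.4 CPM under the Staufen label).

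The libraries that carry the label of the control antibody, IgG, were set beside both. For all 645 genes lower by more than 2-fold under the Staufen label, the IgG-labelled mean lay nearer to the Staufen-labelled than to the hnRNPab-labelled mean on the log2 scale, as it did for 70.4% of all tested genes. The median levels of these 645 genes were 36.5 CPM in the Staufen-labelled, 105 CPM in the hnRNPab-labelled and 34.3 CPM in the IgG-labelled libraries. For the 652 higher genes the IgG-labelled mean was above both others for 232, between them for 417 and below both for 3 (35.6%, 64.0% and 0.46%, against 30.7%, 40.5% and 28.8% of all tested genes). The IgG-labelled mean was above both for 157 of the 223 in the authors' deposited hnRNPab table alone (70.4%) and for 75 of the 429 in neither table (17.5%). It was nearer to the hnRNPab-labelled mean for 137 of the 652, 135 of which are in neither table. No test was made of these positions, since the genes were chosen on 2 of the 3 groups.

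Genes without a name are 80.7% of all tested genes, since only genes in the deposited tables have names. Of the 652 genes higher by more than 2-fold, 429 (65.8%) have no name here, and of the 645 lower ones 48 (7.44%), both below the share over all tested genes. Among the 16296 tested genes in neither of the authors' deposited tables, 429 (2.63%) were higher by more than 2-fold and 44 (0.27%) lower. The largest rise among unnamed genes with a mean of at least 5 CPM was that of gene35360, at 3.73, 7.20, 4.67 and 22.3 CPM under the Staufen label and 0.638, 0.744, 0.522 and 2.18 CPM under the hnRNPab label (log2 3.18, SE 0.174, adjusted p = 3.54e-15). Second was gene38691 at 51.4, 92.2, 148 and 36.9 against 6.49, 13.7, 16.6 and 4.41 CPM (log2 2.98, SE 0.0775, adjusted p = 1.25e-21). In both, levels varied several-fold between replicate numbers, and each Staufen-labelled library exceeded its hnRNPab-labelled partner. The largest unnamed falls were those of gene10064, given above, and gene48253 (log2 -2.12).

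The antibody targets came next. Only stau1.S (gene20), 1 of the homeologs of Staufen 1, has a name here, and no value can be given for hnrnpab or stau2. Its mRNA was at 47.2, 60.0, 67.4 and 54.9 CPM in the Staufen-labelled libraries and 49.7, 60.5, 53.0 and 44.4 CPM in the hnRNPab-labelled ones, with overlapping ranges (log2 0.14, SE 0.0691, adjusted p = 0.0828, edgeR). Replicates 3 and 4 were higher under the Staufen label and replicates 1 and 2 were not. Without replicate 1 the change was 0.21 with adjusted p = 0.0179, and without replicate 2 it was 0.18 with adjusted p = 0.0442. An immunoprecipitation selects bound RNA, so the target's own mRNA is no check of the labels.

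Maternal mRNAs known for their place along the animal-vegetal axis differed between the labels. All 10 tested members of the animally enriched list were lower under the Staufen label, with a median change of -1.57 against 0.01 over all tested genes. All are listed in the authors' deposited Staufen table alone, where 94.2% of genes were lower. The neural and ectodermal transcription factor sox3.S was at 184, 118, 138 and 125 CPM in Staufen-labelled replicates 1 to 4 and 857, 452, 719 and 637 CPM in hnRNPab-labelled ones (log2 -2.23, SE 0.0626, adjusted p = 4.5e-21, edgeR). Its .L copy was at -1.34, a smaller fall (difference of .L minus .S 0.88, limma adjusted p = 5.22e-06). The ectodermal forkhead factor foxi2.S (-1.85) and its homeolog foxi2.L (-1.05), the epidermal regulators grhl1.L and grhl1.S (-1.65 and -1.49) and ets2.L and ets2.S (-2.07 and -1.66) fell too.

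Vegetally localized mRNAs are the textbook cargo of this transport. Only 5 of the 28 list members in the reference table have a name here. Of the 5 tested, 3 were lower and 2 higher under the Staufen label, beside 55.6% lower and 33.1% higher among all named genes. The authors' deposited Staufen table alone lists 4 of the 5, and the hnRNPab table alone lists atrx.L. The Wnt ligand wnt11b.L, which acts in dorsal axis formation, was at 114, 90.9, 76.6 and 79.3 CPM in the Staufen-labelled and 235, 175, 166 and 186 CPM in the hnRNPab-labelled libraries (log2 -1.09, SE 0.0567, adjusted p = 1.24e-15, edgeR), and every Staufen-labelled value lay below every hnRNPab-labelled one. The endoderm-specifying T-box factor vegt.S was at 187, 143, 141 and 135 against 255, 215, 246 and 256 CPM (log2 -0.70, SE 0.0621, adjusted p = 1.1e-10). The RNA-binding protein gene bicc1.S was at 95.8, 106, 98.3 and 93.1 against 177, 199, 185 and 199.8 CPM (log2 -0.96, SE 0.0551, adjusted p = 1.09e-14), while its homeolog bicc1.L was at 296, 376, 226 and 283 against 264, 311, 218 and 271 CPM (log2 0.13, SE 0.0529, adjusted p = 0.029). The small rise of bicc1.L was lost without the block (adjusted p = 0.566), without a filter on low counts (0.0746) and without replicate 1 (0.11) or 2 (0.254). The chromatin remodeller gene atrx.L rose, at 316 ± 85.9 against 142 ± 37.8 CPM (SD, n = 4 each; log2 1.14, SE 0.0528, adjusted p = 1.09e-16). In the IgG-labelled libraries wnt11b.L, bicc1.S, vegt.S and bicc1.L averaged 66.4, 78.3, 107 and 176 CPM, below both other labels, and atrx.L 396 CPM, above both.

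From the germ plasm list only mael.L, a piRNA pathway gene, has a name here, and it fell by 0.39 on the log2 scale (adjusted p = 2.98e-07; 0.239 without the block).

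Genes that drive or restrain meiotic maturation and cell division were mostly lower under the Staufen label. Of 24 tested members 22 were lower and 2 higher, with a median of -1.68, and 20 were lower by more than 2-fold. The authors' deposited Staufen table alone lists 22 of the 24. Of the 1974 tested genes in that table alone, 94.2% were lower and 30% were lower by more than 2-fold. Both copies of cdc25a fell, the .S copy at 45.8, 31.8, 32.7 and 27.7 CPM under the Staufen label and 264, 147, 207 and 179.7 CPM under the hnRNPab label (log2 -2.53) and the .L copy as well (log2 -2.19). The anaphase-promoting complex inhibitors fbxo43.L and fbxo43.S, which hold the egg in meiotic metaphase, changed by -2.18 and -1.98, and the related fbxo5.S and fbxo5.L by -2.08 and -1.81. Cyclin mRNAs ranged from -2.07 for ccna2.S to -1.20 for ccnb1.2.L, with ccne1.L and ccne1.S at -1.62 and -1.59. The kinase genes aurkb.S (-1.12) and cdk2.L (-0.82) also fell.

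Unlike most of these genes, mos.L, the kinase that drives meiotic maturation, rose. This gene is listed in the authors' deposited hnRNPab table alone, where 80.5% of genes were higher. Its IgG-labelled mean was 763 CPM, above the means of both other labels. It was at 598, 454, 510.3 and 462 CPM in the Staufen-labelled and 441, 356, 364 and 371 CPM in the hnRNPab-labelled libraries (log2 0.39, SE 0.0511, adjusted p = 1.25e-07, edgeR). The spindle checkpoint gene bub3.S was at 0.13 (adjusted p = 0.0308), a call lost without the block (0.624), without a filter on low counts (0.0995) and without replicate 1 (0.0602), 3 (0.0965) or 4 (0.13). Replication genes ran the same way as most cyclins. All 4 tested, namely mcm6.2.S (-1.89), mcm6.2.L (-1.71), dbf4.L (-1.85) and pole3.L (-0.77), were lower. They encode parts or activators of the replicative helicase and a polymerase subunit. All 4 are listed in the authors' deposited Staufen table alone, where 94.2% of genes were lower.

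For the centrosome, spindle and kinetochore list, 14 of 19 tested genes were lower, 3 higher and 2 not called (median -0.68). The authors' deposited Staufen table alone, where 94.2% of genes were lower, lists 14 of the 19, and the hnRNPab table alone lists 3. Beside haus3.L, the kinesin genes kifc1.L (-1.62), kif18b.L (-1.37) and kif18a.L (-1.04) and the inner kinetochore gene cenph.L (-1.23) fell. The chromosome-binding kinesin kif22.S is named for 2 identifiers, gene10307 and gene6790, at -2.07 and -1.39. Rises were those of the cilium and centrosome genes cep41.S (1.43) and cep89.L (1.11), at 39.7 ± 11.3 against 14.6 ± 2.85 CPM for cep41.S (SD, n = 4 each), and of cenpm.L (0.31).

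**Figure D3:**
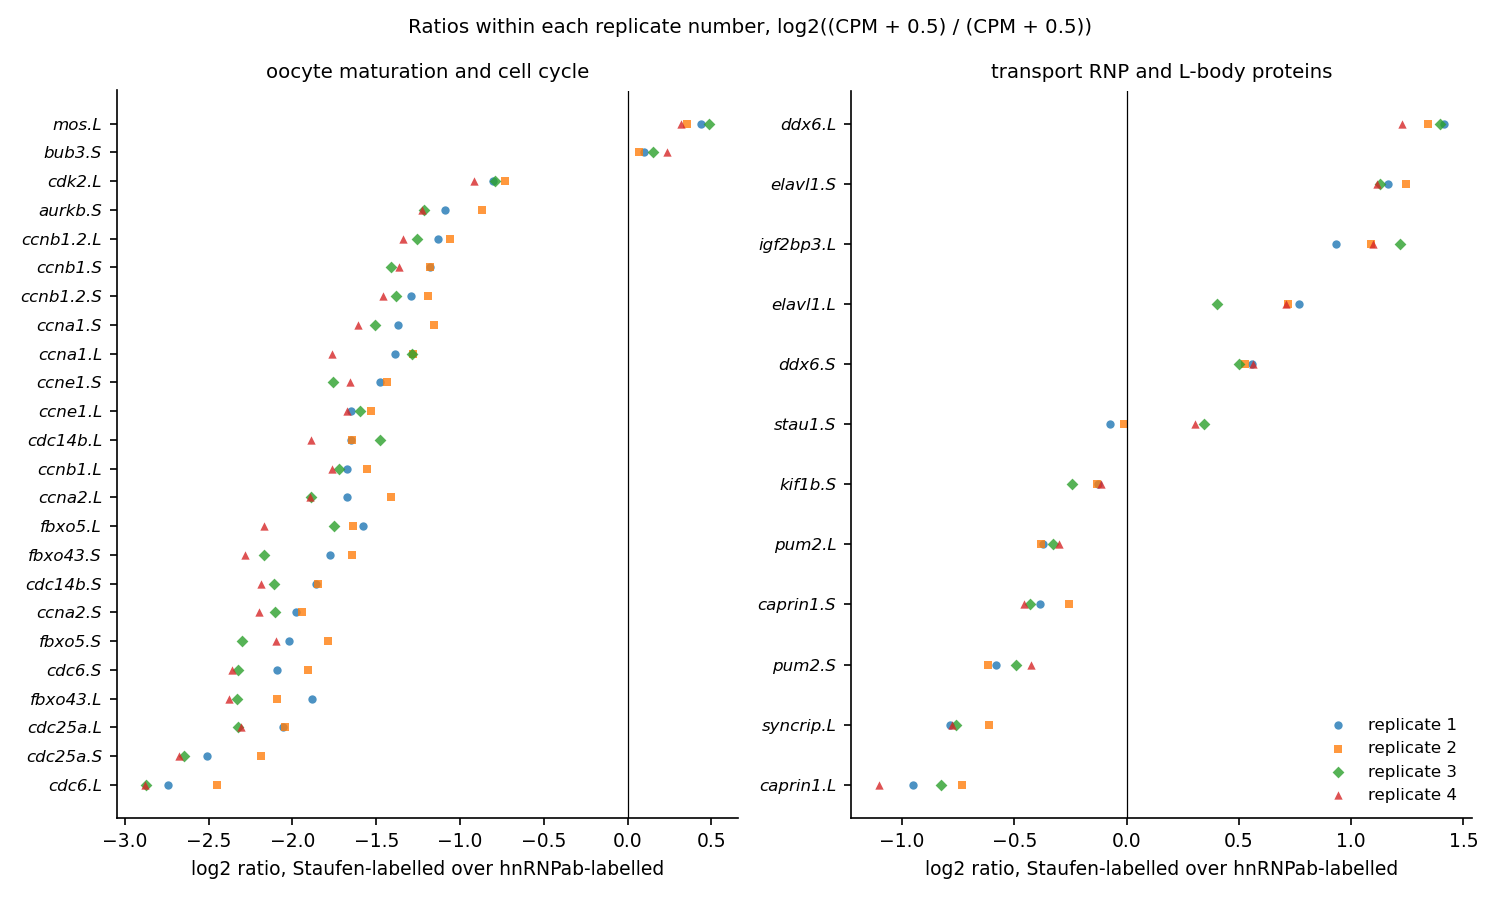
Each symbol is the log2 ratio of Staufen-labelled over hnRNPab-labelled level (CPM plus 0.5) within 1 replicate number, for the 24 cell cycle genes (left) and 12 of the 14 transport particle genes (right). Among cell cycle genes all but mos.L and bub3.S are below 0 in every number, whereas symbols of transport particle genes lie on both sides of 0, from -1.10 (caprin1.L) to 1.41 (ddx6.L).

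Histone mRNAs moved together. This group was picked after its values were seen, and its genes have near-identical copies whose reads can be misassigned. All 11 tested genes with a histone name were lower under the Staufen label, within a narrow band of -1.35 to -0.84, and all are listed in the authors' deposited Staufen table alone. For the H2A variant gene h2afx.L (gene13554), the Staufen-labelled libraries held 6607, 3789, 4177 and 3596 CPM and the hnRNPab-labelled ones 11665, 7019.8, 7567 and 7881 CPM (log2 -0.93). The linker histone hist1h1t.L was at 75.4 ± 17.1 against 193 ± 55.8 CPM (SD, n = 4 each; log2 -1.35). Replicate 1 was highest for h2afx.L under both labels. The gene slbp encodes the protein that binds the stem-loop at the end of replication-dependent histone mRNAs, and its copies parted: slbp.L was at 578 ± 59.8 against 1527 ± 175 CPM (log2 -1.40, SE 0.0501, adjusted p = 4.4e-19, edgeR), and slbp.S at 601 ± 55.0 against 337 ± 48.5 CPM (log2 0.84, SE 0.0547, adjusted p = 1.69e-13).

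mRNAs that encode RNA-binding proteins of transport particles split between the labels. Of 14 tested, 7 were higher, 6 lower and 1 not called (median 0.34), with 7 higher and 3 lower without the block, and the authors' deposited tables list 6 in the Staufen table alone and 8 in the hnRNPab table alone. Higher under the Staufen label were the DEAD-box helicase of mRNA storage ddx6.L, at 212, 249, 334 and 258 CPM against 79.3, 98, 126 and 109.7 CPM under the hnRNPab label (log2 1.34, SE 0.0541, adjusted p = 5.35e-18, edgeR), and its homeolog ddx6.S (0.53). The AU-rich element binding protein genes elavl1.S and elavl1.L (1.16 and 0.64) and igf2bp3.L, which encodes the Vg1 RNA-binding protein (1.08), were higher too. Lower were the stress granule and translation regulators caprin1.L and caprin1.S (-0.91 and -0.39), syncrip.L (-0.74), the Pumilio genes pum2.S and pum2.L (-0.53 and -0.35), and the kinesin kif1b.S (-0.16). Without the block the calls of caprin1.S, pum2.L and kif1b.S were lost (adjusted p = 0.0546, 0.0849 and 0.202), and that of kif1b.S also without replicate 3 (0.0861).

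In the list of mRNA storage, deadenylation and decapping factors 4 of 15 were higher and 9 lower (median -0.43). Of all named genes, 33.1% were higher and 55.6% lower. Besides btg3.S and xrn2.L, the decapping cofactor dcp1b.L (-1.36), the cytoplasmic poly(A) polymerase papd4.S (-1.28), the antiproliferative adaptor btg2.S (-1.23) and the deadenylase subunit cnot8.S (-1.11) fell. The antiproliferative gene tob2.L rose (log2 1.13, SE 0.0585, adjusted p = 1.18e-15, edgeR), at 128, 208, 235 and 206 CPM under the Staufen label and 67.2, 88.1, 102 and 92.6 CPM under the hnRNPab label. The copies of the deadenylase cnot6l went apart, cnot6l.L at 0.68 and cnot6l.S at -0.33. The cytoplasmic polyadenylation factor cpeb3.S rose (0.81) and cpeb4.S fell (-0.43), and cpeb3.L (0.23) passed with the block and not without it (adjusted p = 0.207) or without replicate 2 (0.186).

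Small RNA pathway genes gave 3 rises and 5 falls of 9, near the 33.1% higher and 55.6% lower of all named genes. The microRNA-processing nuclease dicer1.L rose most, at 185 ± 27.8 against 83.1 ± 16.6 CPM (SD, n = 4 each; log2 1.15, SE 0.0553, adjusted p = 2.28e-16, edgeR), followed by dgcr8.L (0.56), a cofactor of the nuclease Drosha. The Argonaute genes ago2.L (-0.61), ago4.L (-0.48) and ago1.L (-0.30) fell, while ago1.S rose (0.35). Of 11 hnRNP and splicing genes, 8 were lower and 3 higher (median -0.73). The splicing regulator hnrnpll.L was at 10.5 ± 2.6 against 51.3 ± 5.65 CPM (log2 -2.29), and hnrnpul2.S (-1.28), hnrnpul1.S (-0.98) and srsf6.L (-0.89) fell as well. Rises were those of the polypyrimidine tract-binding protein genes ptbp3.S and ptbp3.L (1.14 and 0.52) and of rbfox2.L (0.77), a regulator of alternative splicing.

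Of 9 RBM family genes 5 fell, led by rbm47.L (-0.93, edgeR adjusted p = 0.109 without the block), and 3 rose, led by rbm27.L (0.78). With the block these counts were near the shares of all named genes, 55.6% lower and 33.1% higher. Without the block 3 fell and 2 rose. The 5 DEAD-box and DEAH-box helicases had 2 rises, the ddx6 copies above, and 2 falls, those of the mRNA export factors ddx19b.L and ddx19b.S (-1.19 and -1.10). Each of the 3 named translation factors, eif4a1.L (-0.81), eefsec.S (-0.71) and eif4e3.S (-0.45), was lower, the last not without the block (edgeR adjusted p = 0.147). The ribosomal protein gene rps26.L was higher (0.46). The 3 translation factors are listed in the authors' deposited Staufen table alone, and rps26.L in the hnRNPab table alone.

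Signalling lists are set beside the 55.6% of all named genes that were lower. In the Wnt pathway 23 of 31 were lower, 4 higher and 4 not called (median -0.80), with 21 listed in the authors' deposited Staufen table alone. The casein kinase csnk1d.L, which phosphorylates several pathway components, was at 35.1, 32.9, 27.8 and 33.4 CPM in the Staufen-labelled and 167, 152, 182 and 155 CPM in the hnRNPab-labelled libraries (log2 -2.35, SE 0.071, adjusted p = 1.85e-20, edgeR). The scaffold dvl1.L fell (-1.63) at low levels, 1.56 against 4.79 CPM. The destruction complex kinases gsk3a.L and gsk3a.S (-1.61 and -1.39) and the ligase znrf3.L, which removes Frizzled receptors (-1.48), fell too. On the rising side were the ligand wnt5a.L (1.24), the beta-catenin cofactor bcl9l.L (1.15) and the transcription factor tcf7.S (0.99). The ligand's other copy, wnt5a.S, fell (-0.32). The calls of wnt5a.S and axin1.S (0.18) were lost without the block (adjusted p = 0.257 and 0.142).

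The pathway list of TGF-beta, nodal and BMP genes had 21 lower, 6 higher and 3 not called of 30 (median -0.58), and 3 higher and 19 lower without the block. The activin receptor acvr2b.S was at 95.9, 79.4, 83.2 and 78.5 CPM under the Staufen label and 412, 315, 361 and 344 CPM under the hnRNPab label (log2 -2.09, SE 0.0545, adjusted p = 1.28e-21, edgeR), with its .L copy at -1.99. The ligands bmp2.L (-1.45), bmp7.2.S (-1.34) and gdf9.L (-1.08), the nodal co-receptors tdgf1.3.L and tdgf1.1.L (-1.22 and -1.11), the inhibitory smad7.S (-1.09) and the nodal effectors foxh1.L and foxh1.S (-1.05 and -1.02) fell. Rises were those of the ligase genes smurf1.S and smurf1.L (1.14 and 0.65), which target receptor-regulated Smads, and of smad3.L (0.47) and tgfbr3.S (0.24; adjusted p = 0.355 without the block).

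In the Notch pathway, of 10 genes 5 fell, among them the receptors notch1.S (-1.21) and notch3.L (-0.64), the ligand jag1.S (-0.70) and the Notch inhibitor numb.S (-1.06). The 4 rises included the coactivator maml1.L (0.63) and the ligase mib1.S, which activates Notch ligands (0.40). Of 21 MAPK cascade and phosphatase genes 14 were lower and 7 higher. The kinase mapkapk2.L, a target of p38, was at 43.6 ± 4.08 against 201 ± 24.2 CPM (SD, n = 4 each; log2 -2.21), and the phosphatases dusp1.L and dusp1.S were at -2.54 and -1.23. The kinases map4k3.L (1.53) and mapk12.S (0.85) led the rises. Phosphoinositide and lipid enzymes gave 17 falls, led by the lipid kinase pip5k1a.S (-1.98), and 11 rises, led by the phospholipase pla2g15.S (1.31), of 33, and 7 higher and 12 lower without the block.

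Genes of membrane traffic changed in both directions, beside 33.1% higher and 55.6% lower among all named genes. Of 38 tested Rab, Arf and Arl genes and regulators, 17 were higher and 16 lower, with a median of -0.01 and a range from -3.02 to 1.79, and 10 higher and 12 lower without the block. The 4 largest falls were arfgap1.S, its homeolog arfgap1.L (-1.73), arfgap2.S (-1.85) and the Arf-like GTPase arl5c.L (-2.20). The largest rises were rab8a.S, a GTPase of vesicle transport to the plasma membrane, at 99.0, 118, 127 and 122 CPM in the Staufen-labelled and 25.5, 34.4, 41.5 and 34.2 CPM in the hnRNPab-labelled libraries (log2 1.79, SE 0.0622, adjusted p = 2.73e-19, edgeR), and the late endosomal rab7a.S (1.77). They were followed by arl10b.S (1.60) and the Rab GTPase-activating protein gene tbc1d15.S (1.54).

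SNAREs, coats and sorting factors had 15 higher and 16 lower of 34 (median 0.01), beside 33.1% higher and 55.6% lower among all named genes. The authors' deposited hnRNPab table alone lists 18 of the 34 and the Staufen table alone 14. The AP-3 coat subunit ap3d1.L (1.18), the sorting nexin snx13.S (1.12) and vps50.L, of an endosomal recycling complex (1.07), were higher. The AP-1 subunit ap1m2.S (-1.25), snx11.L (-1.24) and the syntaxin stx19.L (-0.98) were lower. In the early secretory pathway, the cargo receptor tmed1.L (-1.14) and the ER retention receptor kdelr3.L (-1.13) led 5 falls of 10. Without the block 0 were higher and 4 lower, and the 4 rises, sec62.S (0.48), tmed8.L (0.47), sec62.L (0.32) and txndc12.L (0.27), were all lost (adjusted p of 0.0855 to 0.278). The sec62.L call was also lost with DESeq2 (0.0625) and without replicate 4 (0.188).

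The large family of SLC membrane transporters had 57 lower, 27 higher and 8 not called of 92 (median -0.49), and 14 higher and 47 lower without the block. Among all named genes 55.6% were lower and 33.1% higher. The authors' deposited Staufen table alone lists 50 of the 92 and the hnRNPab table alone 31. The anion exchanger slc4a1.L, also a marker of red blood cells, was at 40.5, 29.3, 27.0 and 27.8 CPM under the Staufen label and 163, 104, 125 and 109 CPM under the hnRNPab label (log2 -2.01, SE 0.0639, adjusted p = 5.03e-20, edgeR). The mitochondrial sodium-calcium exchanger slc8b1.L (-1.90) and the fatty acid transport protein slc27a3.L (-1.85) fell next, the latter at low levels (1.44 against 5.23 CPM). At the other end were slc35e2b.L (1.41), the endomembrane sodium-proton exchanger slc9a7.S (1.32), both phosphate transporter copies slc20a2.S and slc20a2.L (1.23 and 1.06) and the iron exporter slc40a1.S (1.19; adjusted p = 0.0736 without the block). Ion channels and pumps gave 10 rises and 4 falls of 16 (median 0.40, with 6 higher and 4 lower without the block), with the proton pump subunit atp6v0d1.L (1.17) rising. Of these 16, 11 are listed in the authors' deposited hnRNPab table alone, where 80.5% of genes were higher. The epithelial sodium channel subunit scnn1g.S (-1.68) and the channel-kinase trpm7.L (-1.50) fell.

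Cytoskeleton and motor genes gave 12 falls and 5 rises of 17 (median -1.04), beside 55.6% lower and 33.1% higher among all named genes. The authors' deposited Staufen table alone lists 9 of the 17 and the hnRNPab table alone 8. The dynein light intermediate chain dync1li1.L, a subunit of the minus-end motor, rose most, at 53.5, 60.6, 67.2 and 69.8 CPM in the Staufen-labelled and 18.2, 21.1, 20.4 and 16.8 CPM in the hnRNPab-labelled libraries (log2 1.71, SE 0.0769, adjusted p = 5.54e-17, edgeR). The plus-end motor kif5b.L (0.70) and the dynactin subunit dctn6.L (0.67) rose as well. The unconventional myosins myo6.L (-2.03) and myo1c.S (-1.58) fell, beside the mitotic kinesins above.

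Among nuclear regulators, the ZNF and ZBTB zinc finger genes had 26 higher and 35 lower of 70 (median -0.18). Past 2-fold there were 12 rises and 9 falls, beside 223 rises and 597 falls among the 3887 tested genes with a name. Of the 70, 28 are listed in the authors' deposited Staufen table alone and 31 in the hnRNPab table alone. The rises were led by znf800.L, znf462.L (1.97), znf185.L (1.86) and znf81.L (1.84), and the falls by zbtb44.L (gene38242 at -2.14 and gene50448 at -1.71), zbtb18.S (-1.98) and zbtb34.S (-1.59). For znf462.L the levels were 318 ± 90.9 CPM under the Staufen label and 80.3 ± 21.6 CPM under the hnRNPab label (SD, n = 4 each). Lineage transcription factors had 23 higher and 24 lower of 53, beside 33.1% higher and 55.6% lower among all named genes. Each deposited table alone lists 22 of the 53. The glucocorticoid-responsive klf9.L (1.60), the homeodomain gene pbx2.S (1.24), the cell cycle factor e2f1.L (1.18) and the general activator sp3.L (1.16) rose, while sox3.S, ets2.L, sox4.L (-1.86) and foxi2.S fell.

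Genes of chromatin modifier families had 17 falls, 9 rises and 6 genes not called of 32 (median -0.36), beside 55.6% lower and 33.1% higher among all named genes. These families were drawn by symbol, so a member need not act on chromatin. The SET-domain methyltransferase setd4.L (-2.11), the deacetylases sirt3.2.L (-1.67) and hdac8.L (-1.33) and the heterochromatin protein cbx5.L (-1.26) fell. The histone methyltransferase setd1b.S (0.93) and the class II deacetylases hdac5.L (0.92) and hdac4.S (0.83) rose. Ubiquitin ligases and deubiquitinases gave 47 falls and 24 rises of 81 (median -0.39). Beside the fbxo5 and fbxo43 genes the deubiquitinase usp25.L (-1.70) fell, and the nucleolar deubiquitinase usp36.S (1.50) and the conjugating enzyme ube2q2.L (1.13) rose.

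**Figure D4:**
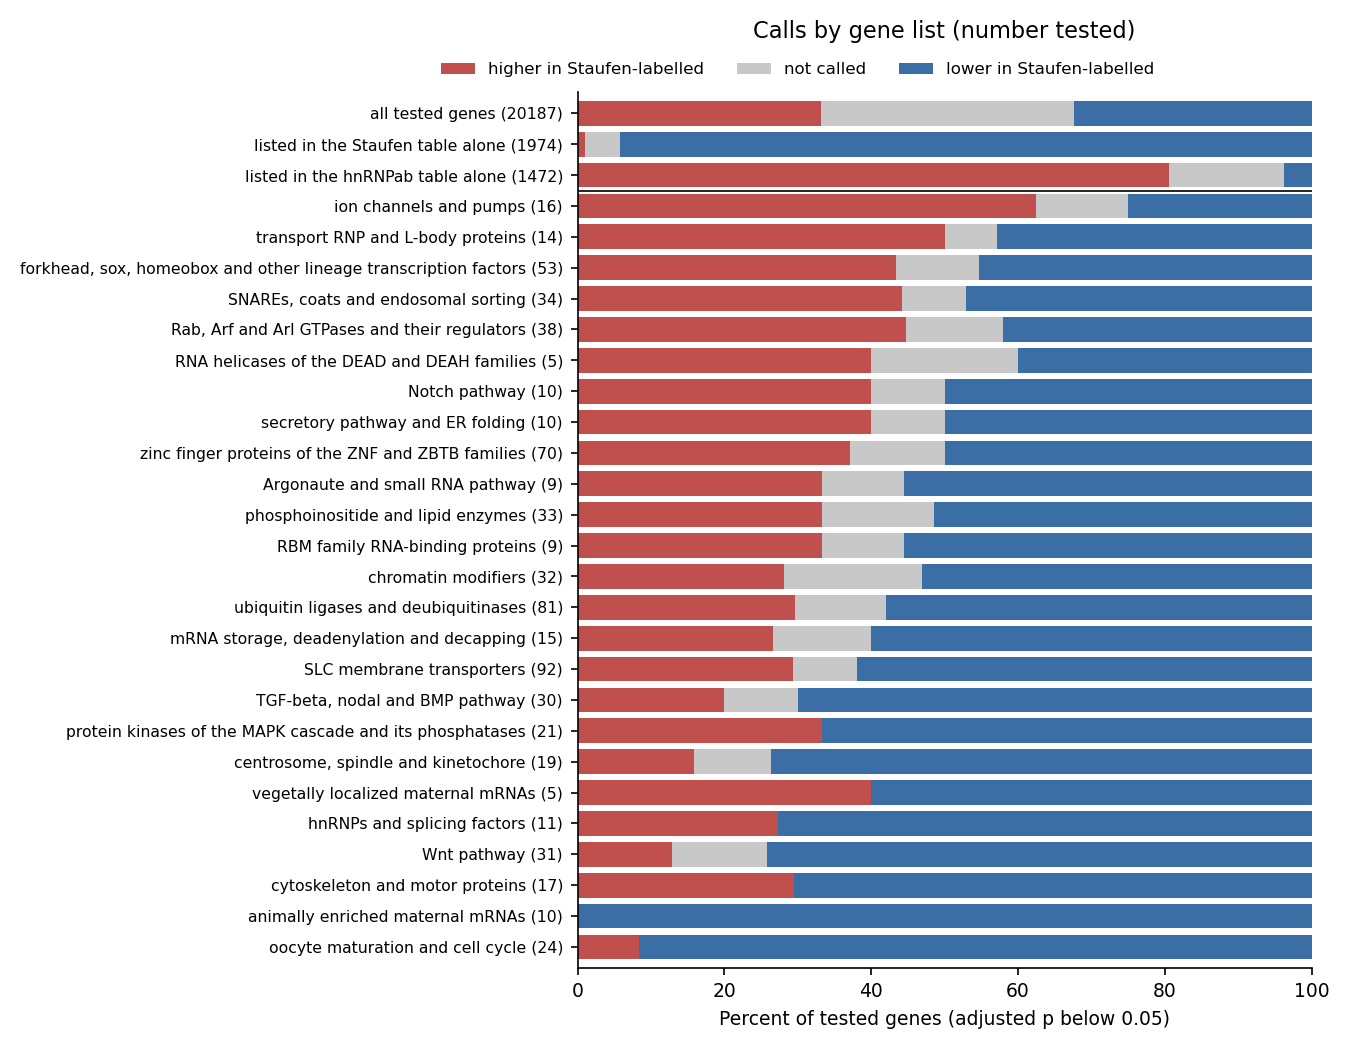
For each gene list with at least 5 tested members (number in brackets), the bar gives the percent higher, not called and lower in the Staufen-labelled libraries at an adjusted p below 0.05; the top 3 bars give the same for all tested genes and for genes of each deposited table alone. The cell cycle list has 22 of 24 members lower and the ion channel list 10 of 16 higher. The authors' deposited Staufen table alone lists 22 of those 24 genes, and the hnRNPab table alone 11 of those 16.

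Of 21 reference transcripts on the list only 3 have a name, all in the authors' deposited Staufen table alone, and the rest are not analysed here. Those 3 fell: tbp.S, the TATA-binding protein gene, at 55.8, 50.1, 53.1 and 58.2 CPM under the Staufen label and 189, 145, 194 and 208 CPM under the hnRNPab label (log2 -1.76, SE 0.0605, adjusted p = 2.24e-19, edgeR), tbp.L at 43.3 ± 4.83 against 101 ± 11.8 CPM (log2 -1.23), and hist1h4a.L (log2 -0.95), whose ranges overlapped. Markers of other ovarian cells are hardly named here, with 1 of 37 follicle and theca genes of the reference table (foxo1.L, 60.2 ± 9.35 against 46.2 ± 6.27 CPM, log2 0.37, adjusted p = 0.0671 without the block), 1 of 21 blood genes (slc4a1.L, above) and 0 of 30 stromal and endothelial genes. Neither is a defining marker alone, and the part of such cells in any change was not tested. Of mitochondrially encoded, respiratory chain and egg coat genes none has a name here.

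The 490 homeolog pairs with both copies named and tested allowed a comparison within a gene. Both copies were higher under the Staufen label in 104 pairs and both lower in 240, and in 68 the copies were called in opposite directions. Across pairs the changes of the copies had r = 0.74, a description that also holds the effect of the tables, since 344 pairs have both copies in the same table or tables. Within the 191 pairs listed in the authors' deposited Staufen table alone r was 0.59, and within the 125 in the hnRNPab table alone 0.44. The copies nevertheless differed in their response in 366 pairs (74.7%; limma on paired differences, Benjamini-Hochberg over all pairs), 182 with the .L copy above and 184 with it below, by a median of 0.42 over all pairs without regard to sign.

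The widest gap was in sbds, a ribosome maturation factor. Its .L copy rose (log2 1.54), at a mean of 94.7 CPM under the Staufen label and 32.3 CPM under the hnRNPab label, and its .S copy fell (log2 -1.50), at 11.9 against 33.7 CPM (difference of .L minus .S 3.00, SE 0.104, limma adjusted p = 4.56e-08). In fam83d, a spindle-associated gene, the .L copy fell (-1.56) and the .S copy rose (0.72). The same order held in slbp, described above (difference of .L minus .S -2.24, SE 0.0717, limma adjusted p = 2.98e-08), in ccdc134 (-1.23 for .L and 1.00 for .S) and in ncoa4, the receptor for autophagy of ferritin (-1.51 and 0.47). The cell cycle regulator sertad1 went the other way (0.50 and -1.40), its .L call being lost without the block (adjusted p = 0.161). In each of these 6 pairs, 1 copy is listed in each deposited table. Of pairs whose copies were not called different, mat2a (-2.32 and -2.45), racgap1 (-2.33 and -2.53), the fibroblast growth factor receptor fgfr1 (-2.0 and -2.03) and acvr2b had the largest changes in common. Homeologs resemble each other in sequence, so some reads may be split wrongly between them. Whether this happened was not tested, and each of these differences is uncertain.

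**Figure D5:**
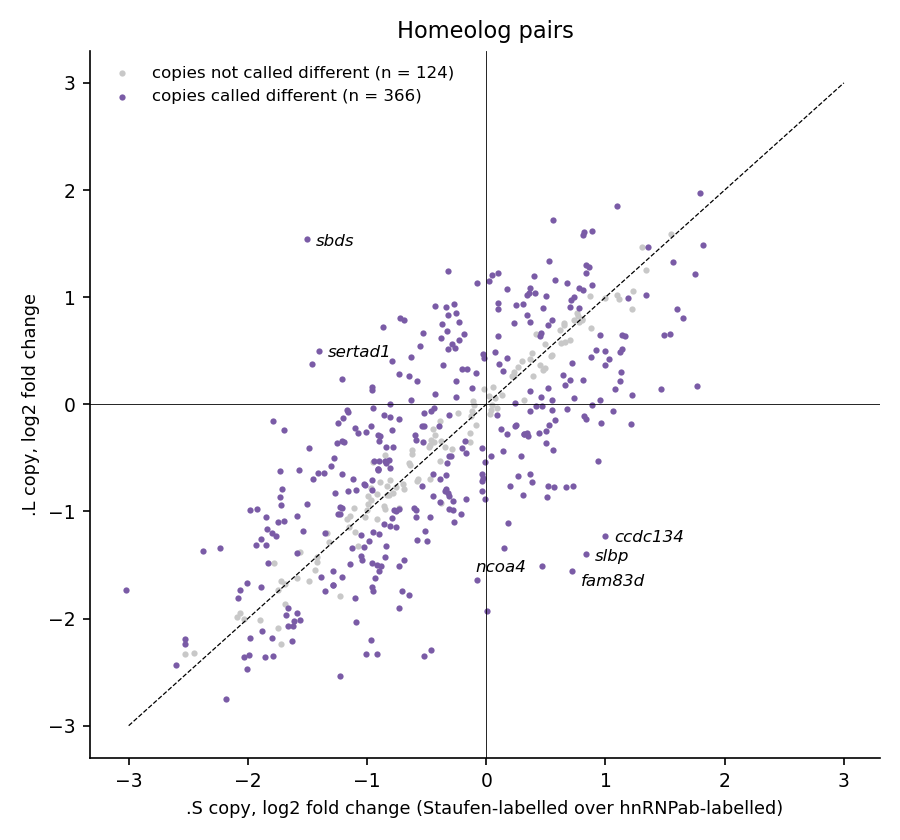
Each point is a homeolog pair, with the log2 fold change of the .S copy on the horizontal and of the .L copy on the vertical axis; purple points are the 366 pairs whose copies were called different, grey points the other pairs, and the dashed line marks equal change. The 6 labelled pairs lie in the quadrants where the copies go in opposite directions, sbds farthest.

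A few named genes were higher under the label of the table that lists them, unlike most genes of that table. Those named here were picked after their values were seen. In the authors' deposited Staufen table alone, 19 genes were higher under the Staufen label. Among those of the 19 with a name that is no placeholder, changes were at most 0.60. The largest were those of emc2.L, of an ER membrane insertion complex (log2 0.60, SE 0.0768, adjusted p = 9.91e-08, edgeR), sprtn.S, a DNA repair protease (0.54), and dusp11.S, an RNA phosphatase (0.49). On the other side, of the 56 genes of the authors' deposited hnRNPab table alone that were lower, axin2.S (-1.15) and myo6.S (-1.09) changed most among those with a name that is no placeholder. The Wnt feedback inhibitor axin2.S averaged 102 ± 8.30 CPM under the Staufen label, 227 ± 37.1 CPM under the hnRNPab label and 238 CPM under the IgG label (SD, n = 4 each). The myosin gene myo6.S averaged 9.28 ± 0.898, 19.7 ± 2.39 and 23.2 CPM in the same order. For axin2 and myo6 the .L copies are listed in the authors' deposited Staufen table alone, and all 4 genes were lower under the Staufen label (axin2.L -1.15, myo6.L -2.03).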

How the data were processed

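RNA from 12 immunoprecipitations was counted per gene, and 8 libraries entered the tests. The authors deposited whole-number counts per gene without normalization. Tools listed in the submitters' processing notes are HTSeq 0.9.1, STAR 2.6.1b and edgeR, and for the build, annotation and strand setting the sources used here give nothing. The authors' deposited tables hold log2 fold changes, log2 CPM, an F score, p-values and adjusted p-values; only gene names and fold changes were used. HTSeq's 5 summary lines were left out of library sizes and tests, and reads outside exons and reads shared between genes (0.551% to 0.791%) are shares of singly aligned reads. Overlapping and antisense genes are uncertain.

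Counts were tested with edgeR 4.0.16 in R 4.3.3 (TMM, filterByExpr, 20187 of 51061 genes, quasi-likelihood F test, group plus replicate number, Benjamini-Hochberg adjustment at 0.05). Printed CPM use TMM factors over all 12 libraries. The replicate number pairs the libraries, since every same-numbered correlation passed 0.1. Nothing says that replicates are separate animals, so the p-values cover only the spread among these 8 libraries, and that spread may be technical. Names exist for 3887 tested genes; a gene table of assembly Xenopus_laevis_v10.1, which held 76.4% of the names, served only to count list members. Homeolog differences were tested with limma 3.58.1 on log2(CPM + 0.5).

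Named genes follow a rule: the 15 largest rises and falls among called genes with a mean of at least 5 CPM and 1 direction in all 4 numbers, antibody targets, up to 4 called members per list and direction, all vegetal and reference transcripts, and 10 homeolog pairs; exceptions are stated, and a few genes of the rule are not reported here. Family members whose symbol was seen to name an unrelated protein were removed by symbol, and others may remain. Members, lists and rule were chosen with earlier results of these data known. Alternatives covered the block, the libraries in the fit, scaling, DESeq2 1.42.0, filters and each replicate number left out.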

Additional observations from a re-analysis of the deposited data

Results flagged for a closer look

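Among 84 sets of 4 libraries examined (39 genes and 3 library measures under each label), 6 had 1 library whose distance to its nearest neighbour passed Dixon's 95% critical value, and chance gives about 1 in 20. In Staufen-labelled replicate 1, sfxn5.L was at 41.0 CPM, against 58.8 to 61.1 CPM in the other 3, tjp1.S at 116 CPM, against 176 to 180.1 CPM in the other 3, mat2a.S at 202 CPM, against 132 to 143 CPM in the other 3, and vegt.S at 187 CPM, against 135 to 143 CPM in the other 3. In hnRNPab-labelled replicate 1, cbll1.S was at 16.5 CPM, against 23.6 to 24.3 CPM in the other 3. In hnRNPab-labelled replicate 2, haus3.L was at 134 CPM, against 192 to 200.3 CPM in the other 3. The calls of these 6 genes held when any 1 replicate number was left out.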

How the results depend on the processing

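The replicate block mattered most: without it 3246 genes were higher and 3231 lower, 174 and 300 of them by more than 2-fold, and 17 of the 232 genes chosen by rule lost their call; no direction among the called genes changed. Under the other settings (all 12 libraries, RLE size factors, DESeq2, no filter, a mean of at least 5 CPM) higher genes ran from 5872 to 6880 and lower genes from 5753 to 6756. Leaving out 1 replicate number, which removes both of its libraries, gave 6118 to 6283 higher and 6001 to 6385 lower genes, 529 to 641 and 596 to 681 past 2-fold. The homeolog count was 337 to 361 without 1 number, 248 without the replicate block, 379 with a pseudocount of 2 CPM and 358 with both copies at 5 CPM. A gene called in the reported fit had the other sign in 1 case with DESeq2 and 1 without replicate 2. The cause of each difference was not tested. Across all these settings the median change of all tested genes moved by at most 0.02 on the log2 scale. Genes near the floor of 3 counts cannot show small changes.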
